A study of Mus musculus with 12 samples.

Results

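Nuclear factor kappa B (NF-kB) target cytokines, the inhibitors that NF-kB switches on against itself, and 3 of its own subunits were measured in mouse bone marrow-derived macrophages (BMDMs). The members were 10 genes named by symbol, Tnf, Il6, Il10, Icam1, Nfkbia, Tnfaip3, Nfkbiz, Nfkb1, Nfkb2 and Relb, of 16145 genes listed in at least 1 library, and a library that did not list a member counted as 0 for it. All 10 were found, and 9 passed the filter on low counts that left 12148 genes for testing. Il6 did not. The other 9 were listed in every library of every group, at 16 counts or more.

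The macrophages were grown from marrow for 7 days with macrophage colony-stimulating factor (M-CSF), and no inflammatory stimulus is named in the labels for any group. Wild-type (WT) cells received vehicle for 12 h, 4-octyl itaconate (4-OI, a cell-permeable ester of the macrophage metabolite itaconate) at 120 µM for 15 h, or hemin (heme with oxidised iron) at 15 µM for 12 h, and cells labelled Irg1KO received vehicle for 12 h. Irg1, now Acod1, encodes the enzyme that makes itaconate. Each of the 4 groups had 3 libraries. Whether the 3 are separate animals or cultures is not stated, and the p-values therefore reflect the spread among these libraries, which may be technical. The 4-OI cells were treated for longer than the others, so the compound and the extra time cannot be told apart. The allele behind the Irg1KO label, the sex and the age of the mice are not given in the sources used here.

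Libraries held 9405112 to 22390882 expected counts. Macrophage markers were present in every group (10 of 10 at a mean of 1 CPM or more). Markers of B cells, T and NK cells, mast cells, dendritic cells and red cells each summed to under 3 CPM in every library, and Pax5, Cd3e, Fcer1a and Siglech were at 0 in every library. Stromal markers such as collagens summed to 11100 ± 652 CPM (SD, n = 3) in the Irg1KO libraries and to 1966 ± 219 CPM in WT vehicle, with 1559 to 2137 CPM over all WT libraries, and the Irg1KO libraries stood apart from all WT libraries on the leading principal component, which held 52.8% of the variance. Neutrophil markers summed to 376 ± 12.6 CPM with 4-OI and to 120 ± 5.45 CPM with vehicle, with 2 of 6 tested higher, 1 lower and Ly6g at 0. They summed to 142 ± 5.25 CPM with hemin and to 78.6 ± 4.16 CPM in the Irg1KO libraries. A single gene, Mmp8, made up most of the sum with 4-OI, at 313 CPM against 79.5 with vehicle. Mmp8 was at 91.9 CPM with hemin and 36.4 in the Irg1KO libraries. Endothelial markers summed to 36.2 ± 2.59 CPM with WT vehicle, 9.46 ± 0.756 with 4-OI, 17.3 ± 0.814 with hemin and 31.8 ± 1.91 in the Irg1KO libraries. Acod1 had 300, 240 and 333 expected counts in the Irg1KO libraries and 462, 705 and 286 in WT vehicle, a log2 fold change of -0.48 (SE 0.26) that did not pass (edgeR adjusted p = 0.194). Scaled to library size the ranges overlapped, at 21.7, 13.6 and 26.3 against 27.5, 30.5 and 25.0 CPM. In FPKM, which divide by the transcript length, they did not, at 7.25, 4.20 and 8.76 against 11.3, 12.3 and 10.3. The deposited Acod1 length was 3217 ± 144 bases in the Irg1KO libraries and 2644 ± 9.09 in WT vehicle. The Irg1KO group is called by its label throughout. In bulk RNA, fewer cells of a type and less RNA per cell cannot be told apart.

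NF-kB is a dimer of Rel-family proteins that inhibitor of kappa B (IkB) proteins hold in the cytoplasm. Toll-like and tumour necrosis factor (TNF) receptors activate the IkB kinase (IKK) complex, IkB is degraded, and the freed dimers enter the nucleus and bind kappa B sites. Among the genes they switch on in macrophages are the cytokines that spread the response and the proteins that end it, IkB-alpha (Nfkbia) and the ubiquitin-editing enzyme Tnfaip3, so that the same pathway carries its own brake.

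The promoter windows of 4 members are shown: Nfkbia and Tnfaip3, the 2 members that rose with 4-OI, and Tnf and Icam1, which had the largest increases with hemin among the 9 members tested. Each window runs from 250 bases before to 50 bases after an annotated start, on the coding strand, and was taken from RefSeq on build GRCm38.p6 by gene symbol. The expression files were made on GRCm39, so no coordinate is shared between the sequences and the counts. Capitals mark matches on either strand to a form of the kappa B site, 3 G, then 3 bases of any kind, T, any base and 2 C, and neighbouring matches that overlap form 1 capital run.
Nfkbia, chr12:55492598-55492897, minus strand: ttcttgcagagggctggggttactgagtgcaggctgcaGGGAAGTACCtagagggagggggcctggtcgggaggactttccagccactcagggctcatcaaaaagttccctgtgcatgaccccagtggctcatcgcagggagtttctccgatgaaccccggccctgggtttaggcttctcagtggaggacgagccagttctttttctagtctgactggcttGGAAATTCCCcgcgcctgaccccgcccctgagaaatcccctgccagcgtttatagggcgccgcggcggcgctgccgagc
Tnfaip3, chr10:19015361-19015660, minus strand: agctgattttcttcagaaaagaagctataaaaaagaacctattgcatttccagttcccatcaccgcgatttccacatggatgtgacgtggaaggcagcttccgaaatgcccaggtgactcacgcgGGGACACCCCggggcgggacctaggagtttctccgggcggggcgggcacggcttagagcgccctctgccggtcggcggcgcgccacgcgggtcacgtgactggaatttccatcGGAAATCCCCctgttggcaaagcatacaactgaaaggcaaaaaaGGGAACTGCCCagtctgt
Tnf, chr17:35201958-35202257, minus strand: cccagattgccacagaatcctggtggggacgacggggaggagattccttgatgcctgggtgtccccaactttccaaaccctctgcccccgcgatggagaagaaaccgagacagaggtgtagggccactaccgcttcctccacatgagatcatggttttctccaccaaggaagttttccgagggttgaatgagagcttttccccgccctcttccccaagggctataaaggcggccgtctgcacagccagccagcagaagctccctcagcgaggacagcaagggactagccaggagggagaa
Icam1, chr9:21015690-21015989, plus strand: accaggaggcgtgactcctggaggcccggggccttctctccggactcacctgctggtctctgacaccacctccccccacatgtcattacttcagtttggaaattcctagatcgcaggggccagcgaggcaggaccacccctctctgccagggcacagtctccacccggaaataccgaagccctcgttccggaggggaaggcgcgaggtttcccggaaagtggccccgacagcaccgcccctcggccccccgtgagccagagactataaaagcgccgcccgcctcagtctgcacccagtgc

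The Nfkbia window holds GGAAATTCCC from base -29 and GGGAAGTACC from base -212, both counted from the start. The Tnfaip3 window holds GGGACACCCC from base -125 and GGAAATCCCC from base -12, and the capital run from base 33 is a pair of overlapping matches on opposite strands. A run of this form is not in the Tnf and Icam1 windows shown. The Icam1 window does hold ggaaattcct, which departs from the form on the opposite strand only in its last base and was not marked. The search therefore does not show that either window lacks a kappa B site. Of the 10 members, 6 matched the promoter table, with 9 windows, and 7 of the 9 held at least 1 match, against 17.37% of all 32851 windows in the table. By gene, 4 of the 6 members had a match. Windows of the same gene are not independent, and the members were chosen as NF-kB genes, so the 2 shares were not tested against each other. The other windows with a match were that of Il6, with GGGATTTTCC from base -44, a second one of Tnfaip3 and 3 of Nfkb2. The Nfkb2 windows overlap in part, so the GGGACTTTCC match of 2 of them is the same site. Only these 300-base windows were searched, and a match is a run of letters, not a bound site. The form of the antioxidant response element TGACNNNGC was found once, in the Nfkbia window as TGACCCCGC from base -13, and it occurs in 12.39% of all windows.

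In WT vehicle the order of levels per transcript length, in FPKM (fragment counts scaled by transcript length and library total), was Nfkb1, Nfkbia, Tnf, Icam1, Nfkb2, Tnfaip3, Relb, Nfkbiz, Il10 and Il6. It ran from 35.3 ± 0.27 for Nfkb1 (SD, n = 3) to 0.06 for Il6. Neighbours in this order did not overlap between libraries except Tnf and Icam1. With 4-OI the order changed at the top, where Nfkbia stood above Nfkb1 without overlap, and the Tnfaip3 range overlapped that of Tnf. With hemin, Nfkbia overlapped Nfkb1 and Icam1 overlapped Tnf. The Irg1KO order was that of WT vehicle apart from Icam1 and Tnf, whose ranges overlapped in both groups, and Nfkb1 and Nfkbia overlapped there as well.

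**Figure D1:**
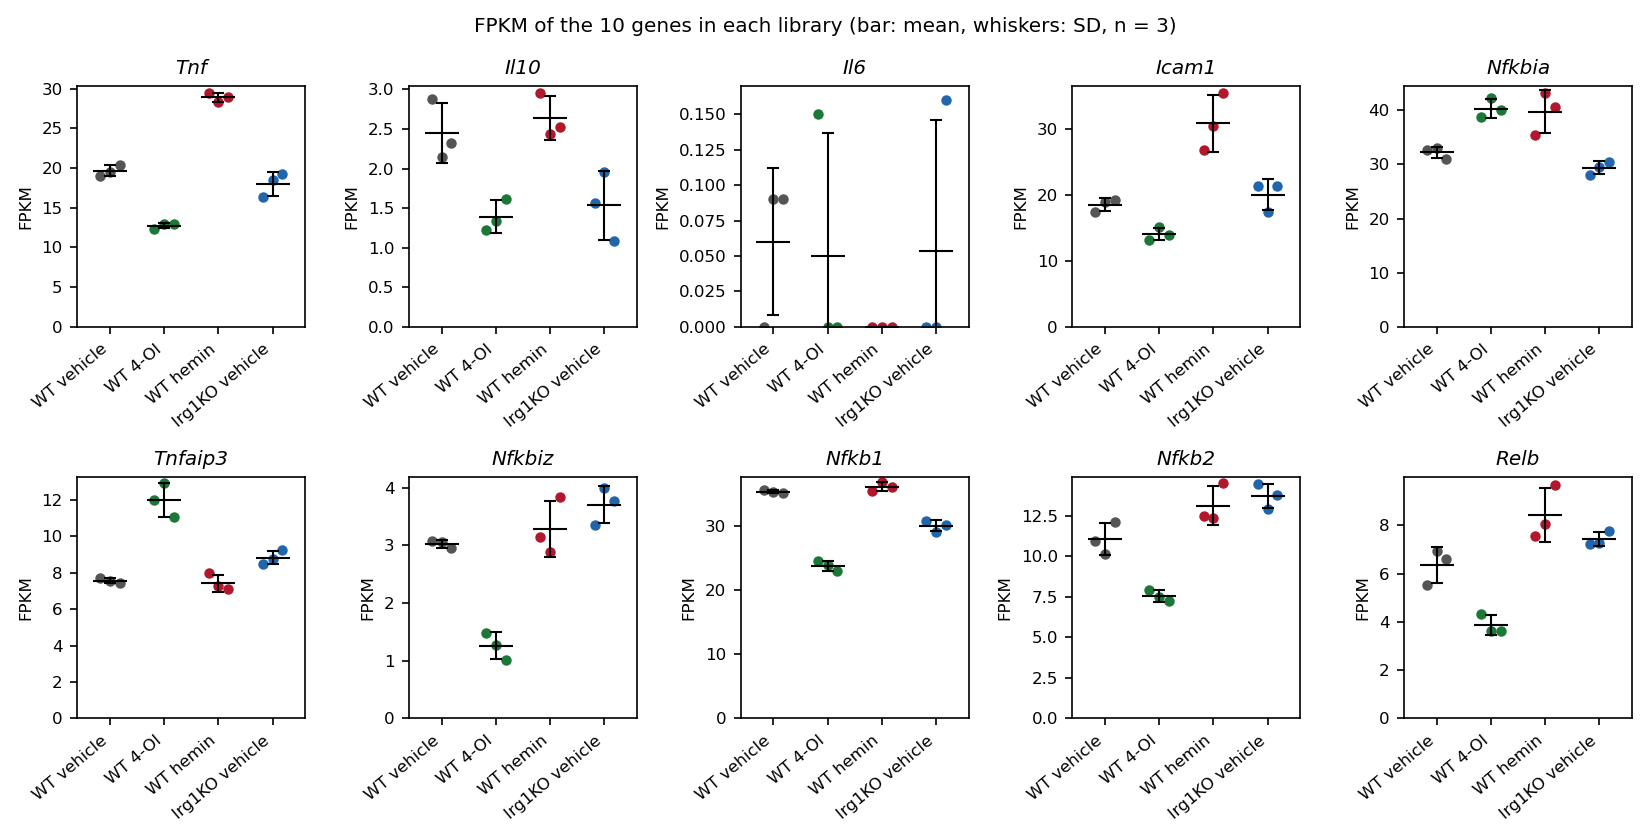
FPKM (vertical axes, from 0) of the 10 genes in each of the 12 libraries, in 4 groups of 3. Points are libraries, horizontal bars the mean and whiskers the SD. With 4-OI, Tnf lay at 12.4 to 13.0 and Tnfaip3 at 11.1 to 12.9, while with vehicle Tnf lay at 19.1 to 20.4 and Tnfaip3 at 7.46 to 7.72. Il6 is near 0 in every group.

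The first question is what 4-OI did to the members in WT macrophages. Most of them fell, and the 2 that rose were the inhibitors Nfkbia and Tnfaip3. By the edgeR quasi-likelihood test with Benjamini-Hochberg adjustment over all 12148 genes, 8 of the 9 tested members passed an adjusted p under 0.05, 2 higher and 6 lower. Over all genes 50.4% passed, 25.4% higher and 25.0% lower. The median log2 fold change was -0.43 over the 9 members and -0.0031 over all genes. FPKM carry no scaling beyond the library total and gave a less even split over all genes, 1743 higher and 4608 lower with 1 added, where counts gave 3083 and 3043. They shifted the median of all genes by -0.11 on the log2 scale. On that scale the 2 members stayed higher, Nfkbia at 0.31 and Tnfaip3 at 0.60, and 7 were lower. Of 6 neutrophil markers tested with 4-OI, 2 were higher (Mmp8 and S100a8) and 1 was lower (Csf3r). Their higher summed level, mostly Mmp8, is given above. Of 4 endothelial markers, 2 were lower (Kdr and Cdh5). The part of either in these results was not tested.

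With hemin, 5 of the 9 tested members rose (Tnf, Icam1, Nfkbia, Relb and Nfkb2) and 0 fell. Over all genes 17.2% passed, 9.48% higher and 7.74% lower. The FPKM scale gave 621 higher and 1422 lower genes, where counts gave 1152 and 940, and the same 5 members rose there. The median log2 fold change was 0.29 over the members and -0.0060 over all genes. At an unadjusted edgeR p under 0.05, 6 members were higher and 0 were lower. DESeq2 also called 5 members higher and 0 lower, where over all genes it called 938 higher and 841 lower. Of 4 endothelial markers tested, 1 was lower with hemin (Kdr), and 2 of 6 neutrophil markers were higher. Their part in these results was not tested.

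In the libraries labelled Irg1KO, changes were mixed. Of the 9 members, 5 passed, with 3 higher (Nfkb2, Tnfaip3 and Nfkbiz) and 2 lower (Nfkb1 and Il10), where 39.8% of all genes passed, 23.5% higher and 16.3% lower. A count of 5 in 9 is not far above that background. Only 3 passed with DESeq2 (Nfkb2, Tnfaip3 and Nfkb1), and 3 also without Irg1KO replicate 3. Over all genes DESeq2 called 2462 higher and 2091 lower, and the fit without that replicate called 2749 and 1837. Stromal markers were higher in these libraries in 8 of 8 tested genes (median log2 fold change 2.50). Of 6 neutrophil markers 1 was higher and 3 were lower, and 1 of 4 endothelial markers was lower. The part of these markers in the results was not tested.

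**Figure D2:**
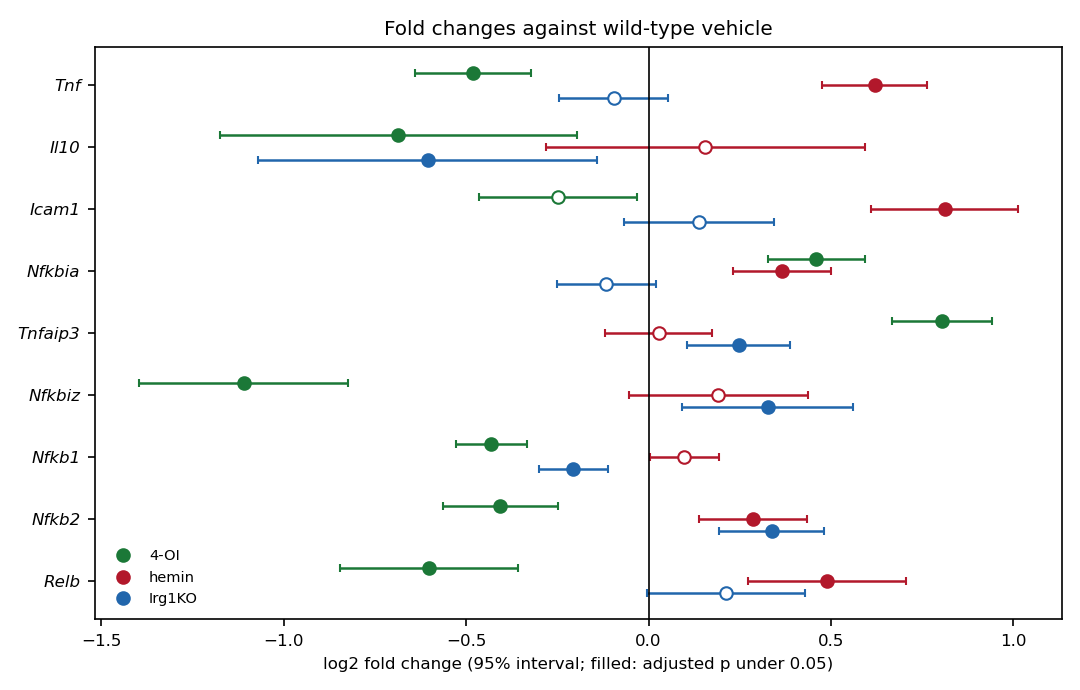
Log2 fold change against WT vehicle (horizontal axis) of the 9 tested members, with 95% intervals, for 4-OI, hemin and Irg1KO, each from 3 against 3 libraries that share the vehicle libraries. Filled points passed an adjusted p under 0.05. Tnf lies at -0.48 with 4-OI and at 0.62 with hemin, Tnfaip3 at 0.80 with 4-OI, and Icam1 at 0.81 with hemin.

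Among the cytokines, Tnf, the inflammatory cytokine that signals back through NF-kB, separated all 3 treatments of WT cells. It was at 19.06, 19.56 and 20.43 FPKM with vehicle, 12.37, 12.96 and 12.98 with 4-OI, 29.48, 28.38 and 28.99 with hemin, and 16.37, 18.52 and 19.28 in the Irg1KO libraries. The ranges of the vehicle, 4-OI and hemin groups did not overlap one another, and the Irg1KO range overlapped vehicle alone. Tnf fell by 0.48 on the log2 scale with 4-OI (SE 0.08, adjusted p = 2.56e-06) and rose by 0.62 with hemin (SE 0.07, adjusted p = 2.21e-08). Its log2 fold change in the Irg1KO libraries was -0.10 (95% interval -0.24 to 0.05, adjusted p = 0.317).

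Il10, the anti-inflammatory cytokine that macrophages release to limit the response, was low in every group. It had 55, 57 and 30 counts with vehicle, 20, 25 and 19 with 4-OI, 33, 39 and 41 with hemin, and 25, 40 and 16 in the Irg1KO libraries. For the lowest of these, 16 counts, the exact 95% Poisson interval is 9.15 to 26.0, which covers counting error only. Per length it was at 2.88, 2.15 and 2.32 FPKM with vehicle and at 1.22, 1.34 and 1.62 with 4-OI, so these groups did not overlap. It fell by 0.69 on the log2 scale with 4-OI (SE 0.24, edgeR adjusted p = 0.0168) and by 0.60 in the Irg1KO libraries (SE 0.23, adjusted p = 0.0331). With hemin it stood at 2.95, 2.44 and 2.52 FPKM, overlapping vehicle (log2 fold change 0.16, 95% interval -0.28 to 0.59, adjusted p = 0.698). The fall with 4-OI did not pass with DESeq2 (-0.67, adjusted p = 0.0528) or without WT vehicle replicate 1 (-0.55, adjusted p = 0.0929), 4-OI replicate 1 (-0.60, adjusted p = 0.0744) or 4-OI replicate 2 (-0.66, adjusted p = 0.0596). The fall in the Irg1KO libraries did not pass with DESeq2 (adjusted p = 0.0650) or without WT vehicle replicate 1 (-0.47), Irg1KO replicate 1 (-0.60) or Irg1KO replicate 3 (-0.43).

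Il6, the acute-phase cytokine, was barely detected. The 3 WT vehicle libraries had 0, 2 and 1 counts, those with 4-OI 2, 0 and 0, those with hemin 0, 0 and 0, and the Irg1KO libraries 0, 0 and 2. A count of 0 allows up to 3 counts, which is 0.134 to 0.319 CPM depending on the library. A difference in Il6 between groups was not detectable at this depth.

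Icam1, the adhesion molecule that binds leukocyte integrins, had the largest increase with hemin of the 9 members. It was at 17.36, 18.87 and 19.16 FPKM with vehicle, 26.7, 30.43 and 35.34 with hemin, 13.21, 15.1 and 13.89 with 4-OI, and 21.34, 17.4 and 21.34 in the Irg1KO libraries. Every hemin library lay above every other library, and the 4-OI libraries lay below all others. It rose by 0.81 with hemin (SE 0.09, edgeR adjusted p = 7.16e-06). With 4-OI its log2 fold change was -0.25 (SE 0.10, 95% interval -0.46 to -0.03) at an adjusted p of 0.0533, just outside the threshold. That value passed with DESeq2 (adjusted p = 0.0365), with upper-quartile factors (0.0267), with both FPKM scales, with no filter and in fits of fewer groups. Leaving out WT vehicle replicate 1 (-0.29, adjusted p = 0.0440) or 4-OI replicate 2 (-0.31, adjusted p = 0.0474) also brought it past the threshold. In 6 of the 16 alternatives it did not pass, with a value as small as -0.20 and an edgeR adjusted p of up to 0.183. The Irg1KO value was 0.14 (adjusted p = 0.281), and without Irg1KO replicate 2 at 0.24 (adjusted p = 0.0391).

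Of the inhibitors, Nfkbia, which encodes IkB-alpha, rose with both compounds. It was at 32.74, 32.96 and 31.08 FPKM with vehicle, 38.78, 42.19 and 39.98 with 4-OI, 35.45, 43.18 and 40.64 with hemin, and 28.08, 29.54 and 30.43 in the Irg1KO libraries. All 6 libraries with a compound lay above the vehicle libraries in both genotypes. The log2 fold change was 0.46 with 4-OI (SE 0.07, edgeR adjusted p = 2.32e-07) and 0.37 with hemin (SE 0.07, adjusted p = 7.87e-05). It was the only tested member that did not pass between 4-OI and hemin, where the difference was 0.09 with a 95% interval of -0.04 to 0.23 (adjusted p = 0.261).

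Tnfaip3, known as A20, removes activating ubiquitin chains upstream of IKK. It was at 7.72, 7.55 and 7.46 FPKM with vehicle, 12.01, 12.94 and 11.07 with 4-OI, 7.97, 7.25 and 7.09 with hemin, and 8.51, 8.76 and 9.23 in the Irg1KO libraries. The 4-OI libraries stood above all others, and the hemin and vehicle ranges overlapped. It rose by 0.80 with 4-OI, a 1.75-fold increase (SE 0.07, edgeR adjusted p = 1.09e-12), and by 0.25 in the Irg1KO libraries (SE 0.07, adjusted p = 0.00392). With hemin its log2 fold change was 0.03 (95% interval -0.12 to 0.17, adjusted p = 0.847).

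Nfkbiz encodes IkB-zeta, a nuclear IkB protein that acts as a coactivator at secondary NF-kB targets such as Il6 as well as a restraint at others. It was at 3.08, 3.06 and 2.95 FPKM with vehicle, 1.48, 1.28 and 1.02 with 4-OI, 3.15, 2.89 and 3.83 with hemin, and 3.36, 3.99 and 3.77 in the Irg1KO libraries. Every 4-OI library lay below every other library. It fell by 1.11 on the log2 scale with 4-OI, to 0.464 of vehicle (SE 0.14, edgeR adjusted p = 2.42e-08), the largest change among the 9 members in that comparison. It rose by 0.33 in the Irg1KO libraries (SE 0.12, adjusted p = 0.0221). That rise did not pass with DESeq2 (0.30, adjusted p = 0.0807), on the FPKM scales (0.22 with 1 added and 0.28 with 0.1 added), or without WT vehicle replicate 2 (0.33, adjusted p = 0.0550), WT vehicle replicate 3 (0.31, adjusted p = 0.0563), Irg1KO replicate 2 (0.26, adjusted p = 0.131) or Irg1KO replicate 3 (0.31, adjusted p = 0.0525). With hemin it was at 0.19 (adjusted p = 0.311).

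Ratios between members of the same library do not depend on how libraries are scaled against each other. The 3 shown were chosen after the values were seen, so they are described without a test. Nfkbia to Nfkb1, the inhibitor to the precursor of a subunit it binds, was 0.920, 0.936 and 0.887 in FPKM with vehicle and 1.58, 1.77 and 1.75 with 4-OI. It was 1.10 ± 0.09 with hemin (SD, n = 3) and 0.981 ± 0.058 in the Irg1KO libraries. Tnfaip3 to Tnf was 0.385 ± 0.020 with vehicle, 0.941 ± 0.077 with 4-OI, 0.257 ± 0.013 with hemin and 0.491 ± 0.026 in the Irg1KO libraries, and no pair of groups overlapped. Nfkbia to Nfkbiz, a cytoplasmic against a nuclear IkB protein, was 10.6 ± 0.12 with vehicle and 26.2, 33.0 and 39.2 with 4-OI. The 4-OI libraries were the highest in all 3 ratios.

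**Figure D3:**
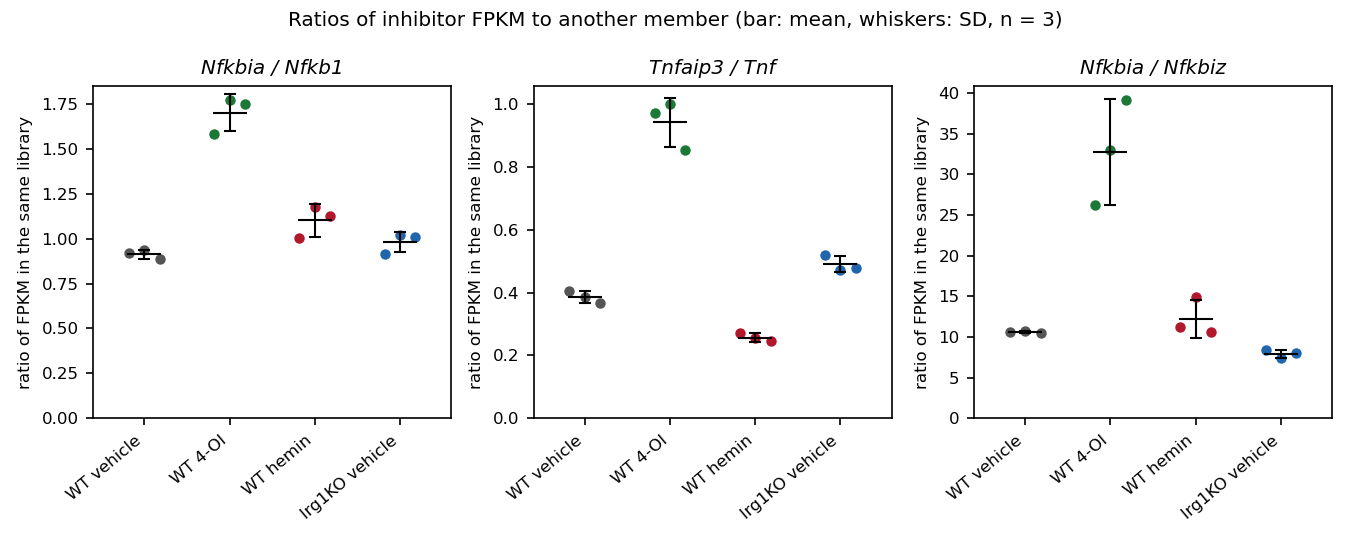
Ratio of FPKM between pairs of members in the same library (vertical axes, from 0), for Nfkbia to Nfkb1, Tnfaip3 to Tnf and Nfkbia to Nfkbiz. Points are the 3 libraries of each of the 4 groups, bars the mean and whiskers the SD. The 4-OI means were 1.70, 0.941 and 32.8, and the vehicle means 0.914, 0.385 and 10.6.

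Of the subunits, Nfkb1 encodes the precursor of p50, the DNA-binding partner of RelA in the canonical dimer. It was at 35.58, 35.22 and 35.05 FPKM with vehicle, 24.5, 23.81 and 22.88 with 4-OI, 35.41, 36.79 and 36.02 with hemin, and 30.71, 29.02 and 30.12 in the Irg1KO libraries. In FPKM the groups formed 3 levels, with overlapping vehicle and hemin ranges at the top, the Irg1KO libraries below them and 4-OI lowest. In CPM the hemin libraries lay above vehicle without overlap, at 148 ± 2.90 against 139 ± 1.01. It fell by 0.43 with 4-OI (SE 0.05, edgeR adjusted p = 1.11e-09) and by 0.21 in the Irg1KO libraries (SE 0.05, adjusted p = 0.000449). With hemin it was at 0.10 (95% interval 0.003 to 0.19). The edgeR p was 0.0431 before adjustment and 0.158 after it, so this did not pass.

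Nfkb2 and Relb encode the subunits of the noncanonical dimer, Nfkb2 as the precursor of p52. Nfkb2 was at 10.95, 10.15 and 12.12 FPKM with vehicle, 7.92, 7.5 and 7.24 with 4-OI, 12.52, 12.39 and 14.51 with hemin, and 14.45, 12.95 and 13.79 in the Irg1KO libraries. The 4-OI libraries were the lowest of the 12, and every hemin and Irg1KO library stood above every vehicle library. It fell by 0.41 with 4-OI (SE 0.08, edgeR adjusted p = 3.36e-05) and rose by 0.34 in the Irg1KO libraries (SE 0.07, adjusted p = 0.000183). The rise with hemin, 0.29 (SE 0.07, adjusted p = 0.00432), did not pass without hemin replicate 3 (0.21, adjusted p = 0.0793), and the count of members called with hemin was then 4. Nfkb2 was the 1 member whose expected counts were not whole, in 7 of 12 libraries, so some of its reads were shared out between features.

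Relb was at 5.52, 6.94 and 6.59 FPKM with vehicle, 4.34, 3.62 and 3.61 with 4-OI, 7.54, 8.07 and 9.67 with hemin, and 7.23, 7.28 and 7.78 in the Irg1KO libraries. The vehicle range lay above 4-OI and below the other groups. Relb fell by 0.60 with 4-OI (SE 0.12, edgeR adjusted p = 6.73e-05) and rose by 0.49 with hemin (SE 0.11, adjusted p = 0.000895). The Irg1KO value was 0.21 (95% interval -0.00 to 0.43, adjusted p = 0.112).

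The compounds were then compared with each other, without the vehicle libraries as a shared reference. Of the 9 members, 8 differed between 4-OI and hemin, with 1 higher with 4-OI (Tnfaip3) and 7 lower, where 42.3% of all genes passed, 20.6% higher and 21.7% lower. The FPKM scale gave 1726 higher and 3490 lower genes, where counts gave 2500 and 2636, and the same 8 members passed in the same directions. The median log2 difference was -0.84 over the members and 0.0015 over all genes. Nfkbiz (-1.30, SE 0.14), Tnf (-1.10, SE 0.08), Relb (-1.09, SE 0.12) and Icam1 (-1.06, SE 0.10) were lower with 4-OI by more than a log2 difference of 1, and the edgeR adjusted p of these 4 ranged up to 1.01e-07. Il10 (-0.84), Nfkb2 (-0.69) and Nfkb1 (-0.53) were lower by less. Tnfaip3 was 1.71-fold higher with 4-OI (0.78, SE 0.07, adjusted p = 1.22e-11). The doses, 120 and 15 µM, and the times, 15 and 12 h, differed between the compounds.

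Treated WT cells were also compared with the vehicle-treated Irg1KO libraries. Genotype label and compound differ together here, and with 4-OI the hours too, so they cannot be told apart. Stromal markers summed to 11100 CPM in the Irg1KO libraries, 2052 with 4-OI and 1776 with hemin, and their part was not tested. Against the Irg1KO libraries, 8 members differed with 4-OI, 2 higher and 6 lower, where 57.7% of all genes passed, 23.5% higher and 34.2% lower. The FPKM scale gave 1767 higher and 5357 lower genes where counts gave 2852 and 4159, and called the same number of members in each direction. Nfkbiz had the largest difference, at 12.9 ± 1.1 CPM in the Irg1KO libraries and 4.72 ± 0.83 with 4-OI (-1.44, SE 0.14, edgeR adjusted p = 3.02e-11). Il10 was at 1.78 ± 0.50 CPM in the Irg1KO libraries and 1.75 ± 0.26 with 4-OI, and this difference of -0.08 did not pass (95% interval -0.62 to 0.45, adjusted p = 0.815). With hemin, 7 members differed from the Irg1KO libraries, 6 higher and 1 lower, where 43.1% of all genes passed, 19.0% higher and 24.0% lower. Tnf (0.72), Il10 (0.76), Icam1 (0.67) and Nfkbia (0.48) were higher with hemin, and Tnfaip3 was lower (-0.22, SE 0.07). Of these 7, Il10 did not pass without Irg1KO replicate 3 (0.59), Tnfaip3 not without hemin replicate 3 (-0.19) or Irg1KO replicate 3 (-0.18), and Relb (0.28, adjusted p = 0.0344) not with DESeq2, on the FPKM scales (0.16 with 1 added), or without hemin replicate 3 (0.17), Irg1KO replicate 1 (0.26) or Irg1KO replicate 2 (0.26).

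The rest of the pathway was followed in 7 lists with 116 genes, of which 115 were listed in the files and 108 were tested. The lists are described by counts and medians beside all genes, and the shares of all genes called are those given above. Of the 9 receptors for the member cytokines and for Icam1, 5 rose and 3 fell with 4-OI. Tnfrsf1b and Tnfrsf1a, the TNF receptors, rose by 1.10 (SE 0.05) and 0.39 (SE 0.05), and Itgb2, the beta chain of the Icam1-binding integrins, rose by 1.05 (SE 0.05). Il10rb, a chain of the IL-10 receptor, fell by 0.37 (SE 0.05). With hemin 7 receptors rose and 1 fell, among them Itgb2 (0.34), Itgal (0.30), Tnfrsf1b (0.30) and Tnfrsf1a (0.25), and on the FPKM scale with 1 added 4 rose. In the Irg1KO libraries 1 rose, Il6st, the signal-transducing chain of the IL-6 receptor (0.70, SE 0.05), and 3 fell, Itgal (-0.29), Il6ra (-0.37) and Il10rb (-0.11). The last did not pass without WT vehicle replicate 2 or 3 or any 1 of the Irg1KO libraries.

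Of the 21 sensors and adaptors upstream of IKK, 5 rose and 7 fell with 4-OI, and 3 rose on the FPKM scales. The pattern-recognition receptors Tlr2 and Cd14 fell by 0.89 (SE 0.06) and 0.67 (SE 0.08), and Cd40, the costimulatory receptor, fell by 1.18 (SE 0.11, edgeR adjusted p = 1.61e-11). Ltbr, the lymphotoxin receptor, rose by 0.36. With hemin 4 rose (2 on the FPKM scales) and 3 fell, and Tlr2 rose by 0.48 (SE 0.05) while Tlr4 and Tlr7 fell by 0.29 and 0.28. Tlr7 had expected counts that were not whole in all 12 libraries. Traf3, an adaptor that restrains noncanonical signalling, was at 0.27 and did not pass on the FPKM scales. In the Irg1KO libraries 1 rose, Cd14 (0.35), and 5 fell, among them Tnfrsf11a (-0.34), Traf6 (-0.31) and Tlr9 (-0.52).

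Of the 12 IKK-complex genes and related kinases, 4 rose and 2 fell with 4-OI, and 2 rose and 5 fell on the FPKM scale with 1 added. Ikbkg, the regulatory subunit of IKK, rose by 0.62 (SE 0.05) with 4-OI and by 0.46 (SE 0.05) with hemin. Map3k14, the kinase of the noncanonical branch, rose by 0.82 (SE 0.09) and 0.37 (SE 0.09). Ikbke, an IKK-related kinase, fell by 0.79 with 4-OI (SE 0.06, edgeR adjusted p = 3.36e-13) and rose by 0.50 with hemin (SE 0.06, adjusted p = 4.53e-08). Ikbkb, the catalytic subunit of the canonical branch, was at 0.28 with 4-OI and did not pass on the FPKM scales. With hemin 3 rose and 0 fell, and at an unadjusted p under 0.05 2 were lower, Tab1 and Tank. After adjustment DESeq2 called 0 lower, while both FPKM scales called 1 lower. Of the same 12 genes, 2 rose and 4 fell in the Irg1KO libraries, all by 0.30 or less. Without Irg1KO replicate 2, 2 fell, and Tab1 (-0.23) and Tab3 (-0.30) did not pass. The count that rose was 1 with DESeq2, with RLE factors, on the FPKM scales, with no filter, and without WT vehicle replicate 1 or 3 or Irg1KO replicate 1 or 3.

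Of the other subunits and IkB proteins, 6 genes, 4 rose and 1 fell with 4-OI, and 4 rose and 0 fell with hemin. With hemin 0 were lower at an unadjusted p under 0.05 in edgeR and 0 were called lower by DESeq2. On the FPKM scales 3 rose with each compound. The list median was 0.44 with each compound on counts, and 0.25 with 4-OI and 0.33 with hemin on FPKM with 1 added. Bcl3, a nuclear IkB protein that binds p50 and p52, rose by 0.65 with 4-OI (SE 0.12) and by 0.69 with hemin (SE 0.12). Nfkbib, encoding IkB-beta, rose by 0.44 with each. Nfkbid, another nuclear IkB protein, rose by 0.69 with 4-OI and by 0.43 with hemin, and Nfkbie rose by 0.58 with hemin. The hemin value of Nfkbid did not pass on the FPKM scales or without WT vehicle replicate 1, hemin replicate 2 or hemin replicate 3. Rel fell by 0.26 with 4-OI and by 0.30 in the Irg1KO libraries, where it was the 1 gene of the 6 that passed.

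Of 18 tested genes for other inhibitors of the pathway, of cytokine mRNA or of cytokine signalling, 9 rose and 4 fell with 4-OI, and on the FPKM scale with 1 added 4 rose and 4 fell. Dusp1, a MAP kinase phosphatase, rose by 0.75 (SE 0.09), and N4bp1 rose by 0.43. Zfp36l1, which destabilises AU-rich mRNAs, fell by 1.17 (SE 0.07), and Il1rn, the interleukin-1 receptor antagonist, fell by 0.96 (SE 0.12). With hemin 6 rose and 1 fell, among them Tnip3 (0.77, SE 0.10) and Tnip1 (0.38), which bind Tnfaip3 protein, and Zc3h12a (0.63, SE 0.10), an RNase that degrades Il6 mRNA. The 1 that fell with hemin was Il1rn (-0.39, edgeR adjusted p = 0.00969), and it did not pass without WT vehicle replicate 2 or hemin replicate 1, while 2 fell with RLE or upper-quartile factors and on the FPKM scales. In the Irg1KO libraries 5 rose and 4 fell, and 1 fell without Irg1KO replicate 1. Among those that rose were Il1rn (1.68, SE 0.09) and Socs3, a feedback inhibitor of STAT3 signalling (1.80, SE 0.14).

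Of 30 tested other targets of NF-kB, 8 rose and 13 fell with 4-OI (median -0.28, against -0.0031 over all genes). The chemokines Ccl2 and Ccl4 fell from 693 to 108 CPM (-2.69, SE 0.07) and from 42.4 to 7.00 CPM (-2.58, SE 0.10), and Plau, the urokinase gene, fell by 1.17. Tnfaip2 rose by 1.16 (SE 0.05). With hemin 4 rose and 9 fell (median -0.05). Without hemin replicate 3, 5 fell, and without WT vehicle replicate 1 the median was 0.018. With hemin the same chemokine Ccl4 fell by 0.82 (SE 0.08) and Plau by 0.63 (SE 0.05), while Tnfaip2 (0.54) and the anti-apoptotic Birc3 (0.49) rose. Tnf and Icam1 rose with hemin while Ccl4 fell. The Irg1KO libraries had 12 higher and 5 lower (median 0.20), among them, in order of adjusted p, Vcam1 (1.47, SE 0.13), Csf1, which encodes M-CSF (1.81, SE 0.10), Gadd45b (1.10) and Il12b, a subunit of interleukin-12 (1.83, SE 0.26). Stromal markers were higher in the same libraries, and their part in these values was not tested.

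Of 12 genes of the IL-10 axis, 5 rose and 2 fell with 4-OI, and 1 fell with DESeq2 or without WT vehicle replicate 1. Maf, a transcription factor that drives Il10 in macrophages, fell from 365 to 141 CPM (-1.38, SE 0.06, edgeR adjusted p = 1.03e-21). Prdm1 and Nfil3, transcription factors tied to Il10 in lymphoid cells, rose by 1.59 (SE 0.11) and 1.33 (SE 0.15), and Stat3, which carries the IL-10 receptor signal, rose by 0.52. With hemin Maf fell by 0.27, Prdm1 rose by 0.62 and Creb1 fell by 0.21, the last not passing without WT vehicle replicate 1 or hemin replicate 2. Nfil3 was at 0.53 and did not pass with DESeq2, on the FPKM scales, or without WT vehicle replicate 1 or 2 or hemin replicate 2 or 3. In the Irg1KO libraries Nfil3 rose by 1.19 and Stat3 by 0.33, Prdm1 fell by 0.53, and Tyk2 was at -0.18 and did not pass without WT vehicle replicate 3 or Irg1KO replicate 1. With RLE factors or on the FPKM scales 4 of these genes fell there.

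**Figure D4:**
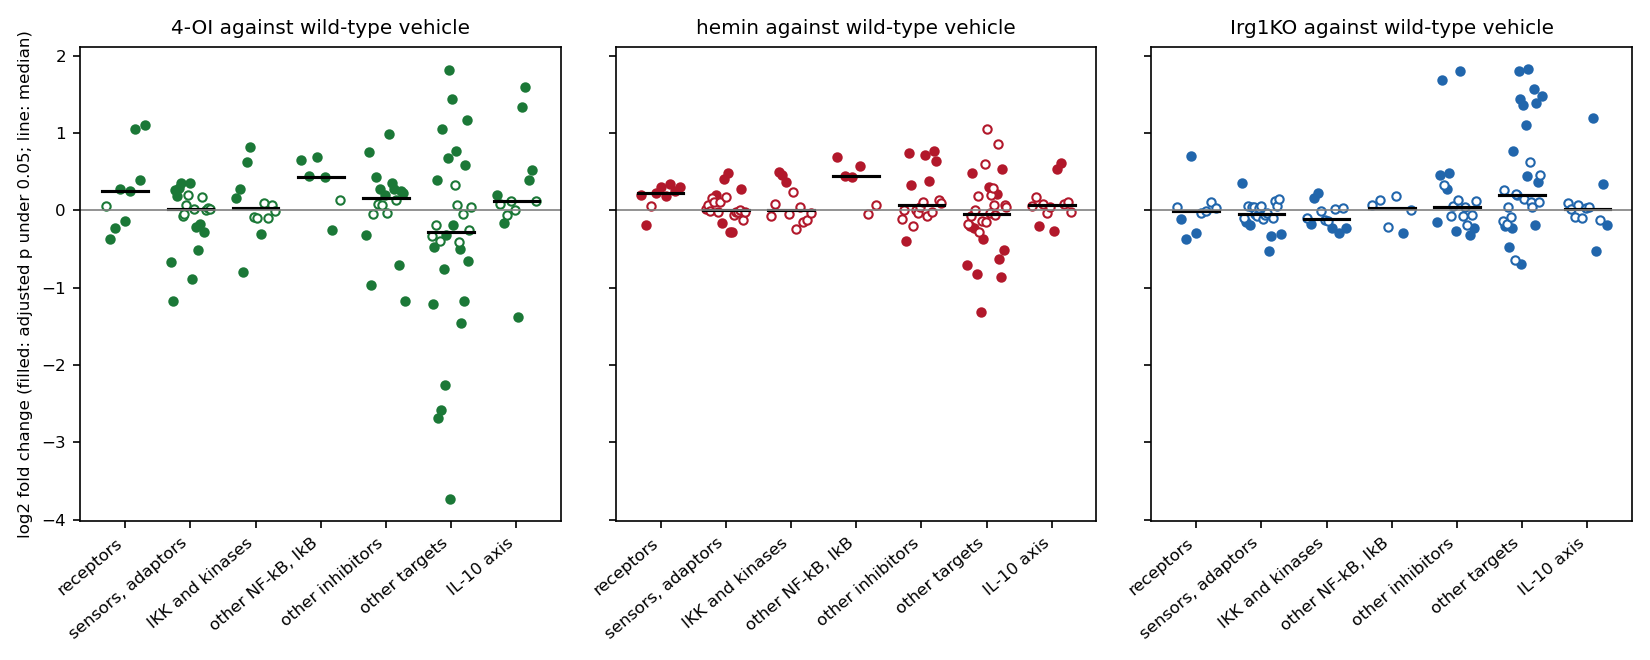
Log2 fold change against WT vehicle (vertical axis) of the tested genes of 7 pathway lists, in 1 panel each for 4-OI, hemin and Irg1KO. Points are genes, filled where the adjusted p was under 0.05, and black lines are list medians. The other targets have medians of -0.28 with 4-OI, -0.05 with hemin and 0.20 in Irg1KO. The other NF-kB and IkB genes have medians of 0.44 with both compounds on these counts, and lower ones on the FPKM scales.

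The genes whose profile over the 12 libraries was most like that of a member were taken from 9836 genes by the Pearson correlation of log2 CPM. The 12 libraries form 4 groups and share their depth and scaling, so these correlations largely describe group means. Tnf was most like Abca1 (r = 0.9735), a cholesterol exporter, and Tnip3. Nfkbia was most like Nploc4 (0.9798), Spi1 and Ftl1, the ferritin light chain. Tnfaip3 was most like Mvd (0.9812) and Fdps (0.978), enzymes of the mevalonate pathway, and Dap. Nfkbiz was most like Rnf26 (0.9737), Nfkb2 like C3 (0.9615), Relb like Arl5c (0.977) and Icam1 like Slamf8 (0.9644). Il10 and Il6 were too low for this search.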

How the data were processed

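RNA-seq was analysed from 12 mouse macrophage libraries in 4 groups of 3, grouped by the labels. The submitters' processing notes name the tools HISAT2, StringTie, Bowtie2 and RSEM and the builds GRCm39 and mm39. Tool versions and the strand setting of the counting are not given in the sources used here. Per the file headers, the deposited values include expected counts per gene, of which 91.06 to 92.21% per library were whole within 0.005. They also hold deposited FPKM, per the file headers, which divide counts by transcript length and library total. Library totals were 9405112 to 22390882. Genes that a file does not list counted as 0.

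Expected counts were rounded and tested in R 4.3.3 with edgeR 4.0.16: filterByExpr, TMM factors (0.944 to 1.050), 1 fit of all 12 libraries with a coefficient per group, robust quasi-likelihood F tests, and Benjamini-Hochberg adjustment over 12148 genes at 0.05. The SE was obtained from F as |log2 fold change|/√F, and CPM are TMM-scaled. The common biological coefficient of variation was 4.71%, and counts of replicate pairs differed by more than sampling noise (chi-square per degree of freedom of 2.40 to 4.88), so no libraries were merged. The test was run on simulated data with changes planted in a small share of genes, evenly in both directions, and the same spread for every gene. That run does not cover scaling when as many genes change as here, or spread that differs between genes.

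Alternatives were RLE and upper-quartile factors, DESeq2 1.42.0, limma-trend (limma 3.58.1) on log2(FPKM + 1) or log2(FPKM + 0.1), all genes without a filter, at least 10 counts in 6 libraries, fits restricted to the 2 groups compared, a block for replicate number, leaving out each library, and, chosen after seeing the data, a fit of the WT libraries alone. The members and lists were chosen with earlier results of these data known. Named were all members, up to 4 called genes per pathway list and comparison with vehicle in order of adjusted p (mean of at least 1 CPM), and the 3 genes most correlated with each member (mean of at least 5 CPM, 1 CPM added before log2). The text gives fewer of these last genes, and the result for Nfkb1 is not reported here. Promoter sequences came from RefSeq tables on GRCm38.p6. Tables and plots were made with Python 3.11.15, pandas 2.3.3 and matplotlib 3.10.9.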

Additional observations from a re-analysis of the deposited data

How the results depend on the processing

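The count of members called between Irg1KO and WT vehicle moved from 5 to 3 with DESeq2 and lay between 3 and 5 when 1 library was left out. It lay between 7 and 8 for 4-OI against vehicle, 4 and 5 for hemin against vehicle, 5 and 7 for hemin against Irg1KO, and stayed at 8 for 4-OI against hemin and against Irg1KO. Over all genes, leaving out 1 library gave 4213 to 4586 calls for Irg1KO, 5393 to 5794 for 4-OI and 1537 to 2086 for hemin against vehicle, 4392 to 4749 for 4-OI against hemin, 6472 to 6702 for 4-OI against Irg1KO and 4634 to 5103 for hemin against Irg1KO. Of the 108 tested pathway genes, 41 to 45 were called for Irg1KO, 62 to 69 for 4-OI and 39 to 45 for hemin against vehicle, 49 to 59 for 4-OI against hemin, 68 to 74 for 4-OI against Irg1KO and 54 to 68 for hemin against Irg1KO. Of the members' fold changes under all alternatives, 796 kept direction and side of the threshold, 25 no longer passed, 11 newly passed and 5 changed sign, each of the 5 in a value that was not called. These were Tnfaip3 with hemin (-0.025 with 1 added to FPKM, -0.028 with 0.1 added, and -0.012 to 0.060 when 1 library was left out, lowest without hemin replicate 1) and Il10 between 4-OI and Irg1KO (0.0036 without 4-OI replicate 1, 0.16 without Irg1KO replicate 2). The cause was not tested. Same-numbered libraries of different groups did not deviate together (18 correlations of -0.079 to 0.067, against -0.062 to 0.12 for differently numbered ones). The labels do not say whether the numbers pair the samples. A lack of shared deviation cannot settle it, since paired samples need not deviate together. With the replicate block the members called were 5 for Irg1KO, 9 for 4-OI (Icam1 added, -0.25) and 5 for hemin against vehicle, 8, 8 and 7 in the other comparisons. Over all genes the block called 2864 higher and 2015 lower for Irg1KO, 3097 and 3059 for 4-OI, and 1183 and 976 for hemin. Against hemin, 4-OI had 2521 and 2660. Against Irg1KO, 4-OI had 2874 and 4169, and hemin 2321 and 2928. Without the Irg1KO libraries, chosen after seeing the data, 9 members were called with 4-OI and 5 with hemin. Over all genes that fit called 3058 higher and 2963 lower with 4-OI, and 1113 and 868 with hemin. Depth limits Il6 and Il10, with at most 2 and 57 counts per library.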
